A study of Mus musculus with 14 samples.

Results

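Gene expression was compared between granulocyte-macrophage progenitors (GMP) from wild-type (WT) mice and from KO littermates, in which Tet2 had been deleted. The comparison rested on the 2 arrays titled as KO GMP and the 2 titled as WT GMP, which are 4 of the 14 arrays in the series. The other arrays held LSK cells (lineage-negative and positive for both Sca1 and c-Kit, the compartment in which blood stem cells lie) and common myeloid progenitors (CMP), each WT and KO, and KO cells kept in culture. Each of the 7 groups had 2 arrays.

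The labels describe the WT animals as Tet2+/+ Mx+ and the KO animals as Tet-/-Mx+, and place all groups on a B6/129 background, a mix of inbred strains. Mx refers to an interferon-inducible promoter, which is widely used to drive Cre recombinase after injection of pIC and is not restricted to blood cells. Carriage of Mx was shared by WT and KO. LSK and CMP were sorted 4 weeks after deletion by pIC injection, whereas no such time is given for GMP. The GMP gate was lineage-negative, c-Kit-positive, Sca1-negative, CD34-positive and Fc gamma receptor high, and the CMP gate differed in being Fc gamma receptor low. The cultured KO cells came from CD150+ sorted cells that had been replated 5 times. From each sample 5 ng of total RNA was amplified, converted to biotin-labelled cDNA and hybridised. Whether the arrays of one group stem from different animals is not stated in the labels, so p-values measure the spread between these samples, which may be technical.

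GMP are bone marrow progenitors committed to neutrophils, monocytes and related cells, and they make large amounts of the enzymes stored in primary granules, such as myeloperoxidase. They descend from stem cells through multipotent and common myeloid progenitors and lose stem cell and lymphoid transcripts on the way. Tet2 oxidises 5-methylcytosine, a step in the removal of methyl groups from CpG sites, and is often mutated in human myeloid disease. In bulk RNA of sorted cells, fewer cells of a type and less RNA per cell cannot be told apart.

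The KO and WT GMP arrays differed little. Of 18194 genes tested, 17 passed an adjusted p below 0.05 (0.0934% of genes; limma over all 14 arrays, two-sided, Benjamini-Hochberg), with 10 higher (0.055%) and 7 lower (0.0385%) in KO. Of these, 4 lie on X or Y and are set apart below. The 13 autosomal genes (0.074% of 17568 autosomal genes) comprised 9 that rose and 4 that fell. The genes that rose were Gbp2b, Ifi202b, Hmga2-ps1, Ccr1, BC018473, Ifi44l, Cd200r3, Apobec3 and Selp, and the genes that fell were Lamtor3, Wdfy1, Tnfaip6 and 4933440M02Rik. At an unadjusted p below 0.05 the count was 806 genes (4.43%), of which 470 were higher (2.58%) and 336 lower (1.85%). Both KO arrays lay above both WT arrays for 3478 genes (19.1%) and below both for 2898 (15.9%), so that arrays did not overlap for 6376 genes (35%). Levels below are RMA intensities on the linear scale, differences are log2 KO minus WT with the standard error (SE) of limma, and folds are 2 raised to that difference.

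**Figure D1:**
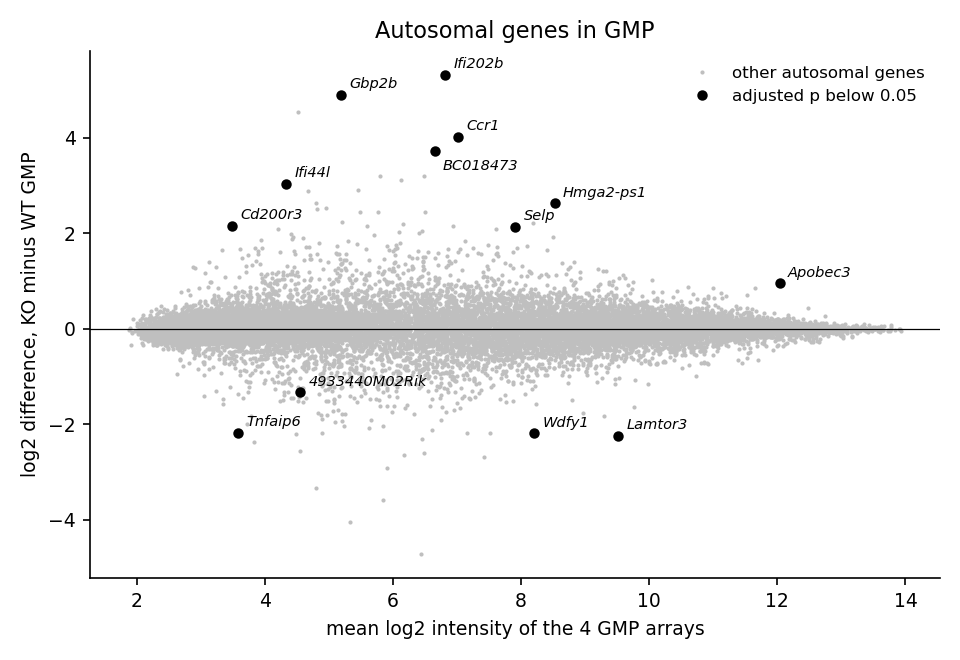
Each point is an autosomal gene, with the mean log2 intensity of the 4 GMP arrays on the x axis and the log2 difference of KO minus WT GMP on the y axis; black points are the 13 genes with an adjusted p below 0.05. Most of the 17568 genes lie close to 0, and the 13 named points range from -2.24 for Lamtor3 to 5.32 for Ifi202b.

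The array carries 27 probe sets for bacterial transcripts that are absent from mouse RNA. The brightest of these read between 20.8 and 27.8 over the 14 arrays, and this reading served as each array's floor. Where both arrays of a group were at or below their floor, the fold is a lower bound, written "at least", in which the mean floor stands in for the dim group. The share of genes above the floor ran from 62.5% to 67.4% over the arrays. Correlations of log2 values over genes were 0.98 between the WT GMP arrays, 0.9849 between the KO GMP arrays and 0.977 to 0.9826 between a WT and a KO array, so that arrays of one genotype were not clearly closer to each other than to the other genotype.

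The groups differed in sex-linked transcripts. Xist, the RNA that coats the inactive X chromosome of females, read 18.7 and 24.3 in WT GMP against 4980 and 5042 in KO GMP. Eif2s3y, a Y-linked gene, read 1115 and 1203 in WT against 10.6 and 7.86 in KO, and Kdm5d and Uty of the Y chromosome were likewise higher on both WT arrays than on both KO arrays. LSK and CMP showed the same split. The cultured KO cells had the WT pattern, with Xist at a level of 20.1 and Eif2s3y at 2069. In the sorted populations, sex-linked expression and genotype therefore cannot be told apart for any gene below. In the cultured KO cells the sex-linked pattern and the genotype come apart, so their levels are given for each called autosomal gene, although culture is a further difference.

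For Tet2 there were 2 probe sets, and since their place relative to the deleted part is not known here, neither checks the genotype. The brighter one read 2045 and 1204 in WT GMP and 2376 and 2228 in KO GMP (1624 ± 594 against 2302 ± 105, SD, n = 2 each). Its difference of 0.55 (SE 0.39) did not pass the test (adjusted p = 1.0). The dimmer one read 209 and 114 in WT and 175 and 113 in KO, with overlapping groups and a difference of -0.14 (SE 0.66). Among its relatives, Tet1 (0.20, SE 0.44) and Tet3 (-0.28, SE 0.45) also did not pass.

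The markers of the gate had the levels of GMP. Fcgr3, a low-affinity Fc gamma receptor, had levels of 470 in WT LSK, 650 in WT CMP, 4636 in WT GMP and 3685 in KO GMP. The inhibitory receptor Fcgr2b read 333, 878, 1839 and 1620 in the same order. Cd34, which marks progenitors, stood at 3940 in WT and 4513 in KO GMP, and Kit, the receptor for stem cell factor, at 1372 and 1421. Ly6a, which encodes Sca1, was not analysed here. None of these gate markers passed the test between KO and WT GMP (differences from -0.33 to 0.20).

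Of the 9 genes that rose, 3 are interferon-inducible genes of host defence, Gbp2b, Ifi202b and Ifi44l. Promoter sequence is shown for these genes and for Ccr1, the 4 called genes with the largest differences among those for which RefSeq gives one, since the results turn on them. Each stretch runs 5′ to 3′ from 250 bases before to 50 bases after the annotated start (RefSeq, GRCm38.p6), with CpG sites, the substrate on which Tet2 acts when methylated, in capitals. The stretches are chr3:142594597-142594896 (plus strand) for Gbp2b, chr1:173982795-173983094 (minus strand) for Ifi202b, chr3:151762842-151763141 (minus strand) for Ifi44l and chr9:123968643-123968942 (minus strand) for Ccr1.
Gbp2b: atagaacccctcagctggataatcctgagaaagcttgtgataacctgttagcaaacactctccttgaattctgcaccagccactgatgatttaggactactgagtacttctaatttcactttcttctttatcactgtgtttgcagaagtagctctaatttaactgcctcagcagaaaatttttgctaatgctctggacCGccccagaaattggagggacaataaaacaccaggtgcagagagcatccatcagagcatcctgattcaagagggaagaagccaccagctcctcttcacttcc
Ifi202b: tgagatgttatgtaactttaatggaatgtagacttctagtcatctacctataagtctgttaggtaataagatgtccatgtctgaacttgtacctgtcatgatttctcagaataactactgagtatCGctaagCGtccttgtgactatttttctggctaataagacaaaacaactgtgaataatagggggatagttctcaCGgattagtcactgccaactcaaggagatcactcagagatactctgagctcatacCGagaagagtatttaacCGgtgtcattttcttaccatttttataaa
Ifi44l: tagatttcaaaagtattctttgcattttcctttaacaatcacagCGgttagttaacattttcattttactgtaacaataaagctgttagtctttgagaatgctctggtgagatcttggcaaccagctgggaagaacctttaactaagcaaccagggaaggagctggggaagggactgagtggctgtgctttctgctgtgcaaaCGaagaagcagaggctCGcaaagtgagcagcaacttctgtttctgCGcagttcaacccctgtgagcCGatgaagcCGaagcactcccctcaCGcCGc
Ccr1: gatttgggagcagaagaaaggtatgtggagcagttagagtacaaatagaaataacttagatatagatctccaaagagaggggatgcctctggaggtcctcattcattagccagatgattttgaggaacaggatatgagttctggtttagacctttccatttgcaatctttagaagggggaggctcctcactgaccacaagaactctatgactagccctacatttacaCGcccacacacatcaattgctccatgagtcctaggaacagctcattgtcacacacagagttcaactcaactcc

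Gbp2b and Ccr1 had 1 CpG each in these 300 bases, Ifi202b had 5 and Ifi44l had 8. Over all 32851 promoters of the table the median was 7 (quartiles 3 and 20), and 14.1% held 1 or fewer. Of the 13 called autosomal genes 9 had an entry, with 10 promoters, of which 7 held a number of CpG sites at or below that median. The richest were a promoter of Apobec3 with 13 and that of Tnfaip6 with 12. A motif of the kind bound by interferon regulatory factors, TTTCNNTTTC (searched on both strands, the reverse being GAAANNGAAA), was present in 2 of these 10 promoters and in 3.44% of all. It read TTTCACTTTC, starting 137 bases before the start of Gbp2b, and TTTCCCTTTC, 140 bases before a start of Apobec3. These are matches of letters, and neither methylation nor binding was measured.

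Gbp2b encodes a guanylate-binding protein, a GTPase induced by interferon gamma that acts against intracellular microbes. It read 6.15 and 7.16 on the WT GMP arrays and 171 and 232 on the KO arrays. Both WT values lay below the floor and both KO values far above it, a rise of at least 8.55-fold (4.91, SE 0.21, limma adjusted p = 9.11e-06). The rise was also called in CMP (5.18) and LSK (6.51), and the cultured KO cells had a level of 128. Of the 11 measured guanylate-binding proteins and related immunity GTPases, Gbp2b alone passed, in this fit. The KO arrays lay above the WT arrays for 6 of the 11 (54.5%) and below for 0, against 19.1% and 15.9% of all genes, and the list median was 0.40 against 0.02. It was 0.20 with values raised to the floor, where the median of all genes was 0.13, and 0.24 without WT GMP replicate 1. Gbp2 (0.08, SE 0.30) and Gbp3 (0.13, SE 0.36) did not pass, and Gbp6 was near the floor at 11.5, 12.8, 18.2 and 30.5.

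Ifi202b belongs to the p200 family of interferon-inducible proteins, several of which bind DNA in the cytosol or nucleus. WT GMP arrays read 17.0 and 18.5, below the floor, and KO arrays 796 and 634. The rise was at least 30.5-fold (5.32, SE 0.28, limma adjusted p = 5.54e-05). The level in KO GMP, 710, was higher than in KO CMP (95.8) and KO LSK (81.5), yet the GMP difference did not pass as larger than that in CMP (2.45, adjusted p of the interaction 0.431) or in LSK (2.03, adjusted p 0.0807). In the cultured KO cells it was at 14.03, below the floor. The probe set is of a type that can hybridise with several related transcripts, and p200 genes resemble one another, so the identity of the transcript is uncertain. Among the 8 measured p200 genes, Ifi202b was the 1 that passed. Others ran both ways without passing: Ifi209 read 838, 753, 521 and 423 in WT and KO (-0.76, SE 0.47), Mndal read 427, 461, 715 and 613 (0.58, SE 0.26), and Aim2, the DNA sensor of an inflammasome, differed by 0.07 (SE 0.19).

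Ifi44l, a gene induced by type I interferon, read 6.65 and 7.40 in WT GMP and 60.5 and 55.3 in KO GMP. The rise was at least 2.48-fold (3.04, SE 0.26, limma adjusted p = 0.00112). The call was lost with values raised to the floor (1.31, adjusted p 0.3), with 16 added to each intensity (1.68, adjusted p 0.0605) and when only the 4 GMP arrays were fitted (adjusted p 0.0507). KO levels were 909 in LSK, 372 in CMP and 57.8 in GMP, with WT levels of 4.90, 6.17 and 7.02, all below the floor. The GMP difference minus that in LSK was -4.49 (SE 0.36, adjusted p = 0.00844), the single gene of 18194 (0.0055%) that passed this test of the interaction, and 1085 genes (5.96%) reached an unadjusted p below 0.05. The GMP difference minus that in CMP was -2.87, which did not pass (adjusted p 0.374). A second Ifi44l probe set gave 2.59, and another stayed below the floor on all 4 arrays. The interaction was not called when either KO GMP array was left out (0 genes each). In the cultured KO cells Ifi44l was at 5.24.

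Of 40 interferon-stimulated genes measured, 1 passed, Ifi44l itself, and the KO arrays lay above the WT arrays for 6 and below for 6 (15% each way, against 19.1% and 15.9% over all genes). The list median was -0.02, and its sign turned with the setting (-0.04 to 0.05) and on leaving out a GMP array (-0.13 without KO replicate 2 to 0.05 without WT replicate 2). Rsad2, an antiviral radical-SAM enzyme, read 119 and 482 in WT and 63.7 and 122 in KO (-1.44, SE 0.69). Ifit1, which binds foreign RNA, and Irf7, a regulator of the interferon response, lay below the floor on all 4 arrays. Ifitm3, which restricts viral entry, read 2144, 2432, 2886 and 3260 (0.43, SE 0.16), with KO above WT and no pass.

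**Figure D2:**
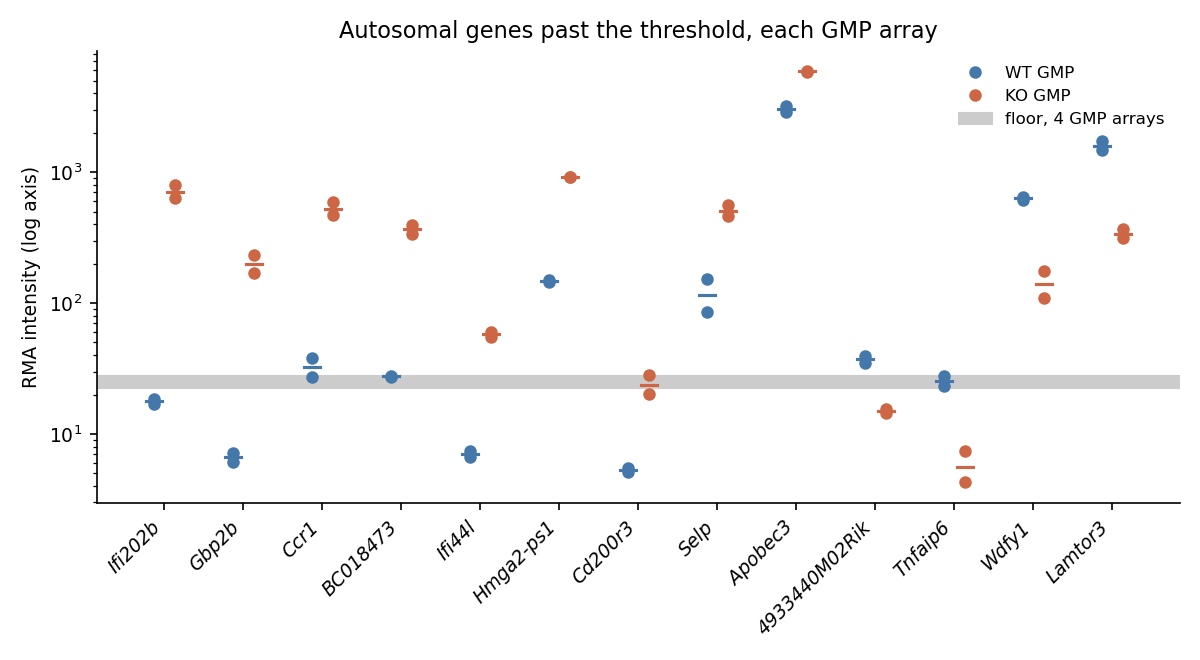
RMA intensity on a log axis for the 13 autosomal genes past the threshold, each GMP array as a point (blue WT, orange KO), bars at the group means of log2 values and the grey band spanning the floors of the 4 GMP arrays. KO and WT points do not overlap for any of the 13 genes, and the WT points of Ifi202b, Gbp2b, Ifi44l and Cd200r3 lie under the band.

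Ccr1, a receptor for inflammatory chemokines on monocytes and neutrophils, read 27.4 and 37.8 in WT GMP and 469 and 587 in KO GMP. It rose 16.3-fold (4.03, SE 0.25, limma adjusted p = 0.000145). A dimmer probe set of Ccr1 read 6.94, 7.69, 47.6 and 18.5, in the same direction. The CMP difference of 3.48 was also called, while that in LSK, 1.24, was not (adjusted p 0.0966), and the difference between GMP and LSK did not pass (adjusted p 0.0807). The level in cultured KO cells was 272. In the fit of the 4 GMP arrays alone Ccr1 lost its call (adjusted p 0.0763).

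Of 19 measured chemokine receptors Ccr1 was the 1 that passed, KO arrays lay above WT arrays for 9 and below for 2 (47.4% and 10.5%, against 19.1% and 15.9% of all genes), and the list median was 0.24, or 0.08 with 16 added to each intensity. Cxcr2, the neutrophil receptor for CXC chemokines, read 82.8 and 69.9 in WT and 188 and 222 in KO (1.43, SE 0.40, adjusted p 0.795). The monocyte receptor Ccr2 read 2109 and 2536 against 4069 and 3506 (0.71, SE 0.32). Cxcr4, which holds progenitors in the marrow, overlapped between the groups (-0.18, SE 0.18).

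Selp encodes P-selectin, an adhesion molecule of platelets and endothelium. It read 153 and 86.0 in WT GMP and 556 and 459 in KO GMP, a 4.41-fold rise (2.14, SE 0.27, limma adjusted p = 0.0258). Further probe sets gave 1.36 and 1.42. The LSK difference of 2.06 was called and the CMP difference of 1.51 was not (adjusted p 0.168), and the interaction did not pass against either (adjusted p 1.0 for CMP and 0.996 for LSK). Cultured KO cells read 14.6. The call sat at the threshold: it was lost on leaving out any array other than WT GMP replicate 1 or a KO CMP array, with an adjusted p of 0.0522 on omitting either WT LSK array, 0.0535 for either KO LSK array, 0.0529 for either WT CMP array and 0.0767 for either cultured array. Within GMP it was 0.0746 on omitting WT replicate 2, 0.211 for KO replicate 1 and 0.103 for KO replicate 2. It was 0.484 in the fit of the 4 GMP arrays and 0.0767 in that of the 12 sorted arrays. Of 21 platelet and megakaryocyte genes measured, Selp was the 1 that passed. KO arrays lay above WT arrays for Selp alone (4.76%, against 19.1% of all genes) and below for 7 others (33.3%, against 15.9%). The list median of -0.07 was -0.18 without either KO GMP array and -0.11 without WT replicate 2. The platelet receptor subunit Gp9 read 164, 171, 117 and 132 (-0.43, SE 0.20).

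Apobec3, a cytidine deaminase that restricts retroviruses, read 2861 and 3184 in WT GMP and 5886 and 5865 in KO GMP, a 1.95-fold rise (0.96, SE 0.12, limma adjusted p = 0.0215). Differences of similar size were called in CMP (0.98) and LSK (1.10), and the cultured KO cells had a level of 4208. Its call was lost without either WT CMP array (adjusted p 0.0612), either cultured array (0.0669), WT GMP replicate 1 (0.109) or 2 (0.0725) and KO GMP replicate 1 (0.153) or 2 (0.146), while the difference stayed between 0.88 and 1.04. It was also lost in the fit of the 4 GMP arrays (adjusted p 0.463) and of the 12 sorted arrays (0.0669).

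Among 27 measured genes of DNA methylation, demethylation and cytidine deamination, Apobec3 was the 1 that passed. The maintenance methyltransferase Dnmt1 (0.09, SE 0.13) and the de novo enzymes Dnmt3a (0.02, SE 0.28) and Dnmt3b (0.06, SE 0.30) did not pass. Dnmt3l, a catalytically inactive partner of the de novo enzymes, read 46.9 and 57.4 in WT and 20.8 and 21.5, below the floor, in KO. That is at least 2.03-fold lower in KO but did not pass (-1.30, SE 0.21, adjusted p 0.112); it passed with array weights (adjusted p 0.024). For the list as a whole KO arrays lay above WT arrays for 8 and below for 5 (29.6% and 18.5%, against 19.1% and 15.9% of all genes). The list median was 0.02, and its sign turned with the setting (-0.03 to 0.06) and without KO GMP replicate 1 (-0.04).

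The remaining rises concerned less studied transcripts. Hmga2-ps1, annotated as a pseudogene of the chromatin protein gene Hmga2, read 146 and 150 in WT GMP and 912 and 925 in KO GMP, a 6.21-fold rise (2.63, SE 0.16, limma adjusted p = 0.000127). It was called in CMP (2.09) and LSK (3.34) too, and cultured KO cells had a level of 825. Hmga2 itself, which is expressed in fetal and self-renewing stem cells, read 478 and 380 in WT and 754 and 753 in KO (0.82, SE 0.39, adjusted p 1.0), and since the copies resemble each other the split of signal between them is uncertain. Without the other populations, in the fit of the 4 GMP arrays, Hmga2-ps1 missed the threshold (adjusted p 0.0507). BC018473, a transcript known by a clone name, read 27.4 and 27.8 in WT and 396 and 340 in KO (3.73, SE 0.24, 13.3-fold), was called in all 3 populations and stood at 3480 in cultured KO cells.

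Cd200r3, an activating receptor of mast cells and basophils, read 5.09 and 5.54 in WT GMP and 28.1 and 20.1 in KO GMP. The rise passed (2.16, SE 0.23, limma adjusted p = 0.00715), but 3 of the 4 values lay below the floor, the bound was at least 1.02-fold, and with values raised to the floor the difference was 0.26 (adjusted p 0.709). The call was also lost without WT GMP replicate 1 (adjusted p 0.0503) or KO GMP replicate 1 (0.0571), and in the fit of the 4 GMP arrays (0.305). It was not called in CMP (0.18) or LSK (0.44), and the interaction did not pass against either (adjusted p 0.899 and 0.273). Cultured KO cells read 3649. Of 22 mast cell and basophil genes, Cd200r3 was the 1 that passed. KO arrays lay above WT arrays for 7 (31.8%, against 19.1% of all genes) and below for 4 (18.2%, against 15.9%). The list median was 0.03, and it ran from -0.0053 to 0.11 when a GMP array was left out. Fcer1a, the IgE-binding chain of the high-affinity IgE receptor, read 85.3 and 103 in WT and 321 and 505 in KO (2.10, SE 0.53, adjusted p 0.701). With values raised to the floor it passed (adjusted p 0.0293), and the difference passed in CMP (4.13) and LSK (3.51). Its receptor partner Ms4a2 (-0.55, SE 0.64), the basophil protease Mcpt8 (0.02, SE 0.25) and the mast cell chymase Cma1 (-0.99, SE 0.18) did not pass.

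Lamtor3 was the fall with the smallest p. It encodes a subunit of Ragulator, the lysosomal scaffold that anchors Rag GTPases for activation of mTORC1 and that also binds the kinase MEK1. WT GMP arrays read 1719 and 1476 and KO arrays 312 and 366, a 4.71-fold fall (-2.24, SE 0.15, limma adjusted p = 0.000169). The fall was called in CMP (-1.32) and LSK (-1.58), and the cultured KO cells had a level of 1391, beside WT levels of 1761 in LSK, 1446 in CMP and 1593 in GMP. In the fit of the 4 GMP arrays alone it did not pass (adjusted p 0.186). The other Ragulator subunits measured, Lamtor1 (-0.04, SE 0.12), Lamtor2 (-0.19, SE 0.42), Lamtor4 (-0.12, SE 0.40) and Lamtor5 (-0.07, SE 0.17) did not pass. The kinase Mtor read 269 and 388 in WT and 203 and 179 in KO (-0.76, SE 0.29), and its partner Mlst8 read 125 and 92.0 against 63.3 and 62.7 (-0.77, SE 0.49), neither of which passed. Over the list of 17, KO arrays lay above WT arrays for 3 (17.6%, against 19.1% of all genes) and below for 7 (41.2%, against 15.9%).

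Wdfy1, an endosomal adaptor of Toll-like receptor signalling, read 616 and 647 in WT GMP and 176 and 109 in KO GMP, a 4.55-fold fall (-2.19, SE 0.24, limma adjusted p = 0.00909). Falls were called in CMP (-3.45) and LSK (-1.84). Of its other probe sets, 2 gave -2.64 and -2.04, 1 gave -0.17 and 1 stayed below the floor. Cultured KO cells had a level of 1320, above every sorted population. Leaving out WT GMP replicate 1 or replicate 2 ended its call (adjusted p 0.0503 and 0.0746), as did the fit of the 4 GMP arrays (0.413).

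Both remaining falls were close to background. Tnfaip6, a hyaluronan-binding protein induced in inflammation, read 27.6 and 23.4 in WT GMP and 7.45 and 4.26 in KO GMP (-2.17, SE 0.30, limma adjusted p = 0.0466). Its WT values straddle the floors of those arrays, so no fold is given, and with values raised to the floor the difference was -0.02. Cultured KO cells had a level of 5.02, below the floor. The fit of the 4 GMP arrays gave it an adjusted p of 0.463. It kept its call without either WT LSK array or KO GMP replicate 1 and lost it without each of the other 11 arrays: on omission, adjusted p was 0.0895 for either KO LSK array, 0.0952 for either WT CMP array, 0.0949 for either KO CMP array, 0.164 and 0.14 for WT GMP replicates 1 and 2, 0.197 for KO GMP replicate 2 and 0.128 for either cultured array. 4933440M02Rik, a clone name, read 35.02 and 39.7 in WT and 15.4 and 14.4 in KO (at least 1.46-fold, -1.33, SE 0.14), and was not called without WT GMP replicate 2 (adjusted p 0.0728), KO GMP replicate 1 (0.0571) or its partner, replicate 2 (0.0793), with values raised to the floor (-0.54, adjusted p 0.663) or in the fit of the 4 GMP arrays (0.398). Its level in cultured KO cells was 7.67, also below the floor.

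**Figure D3:**
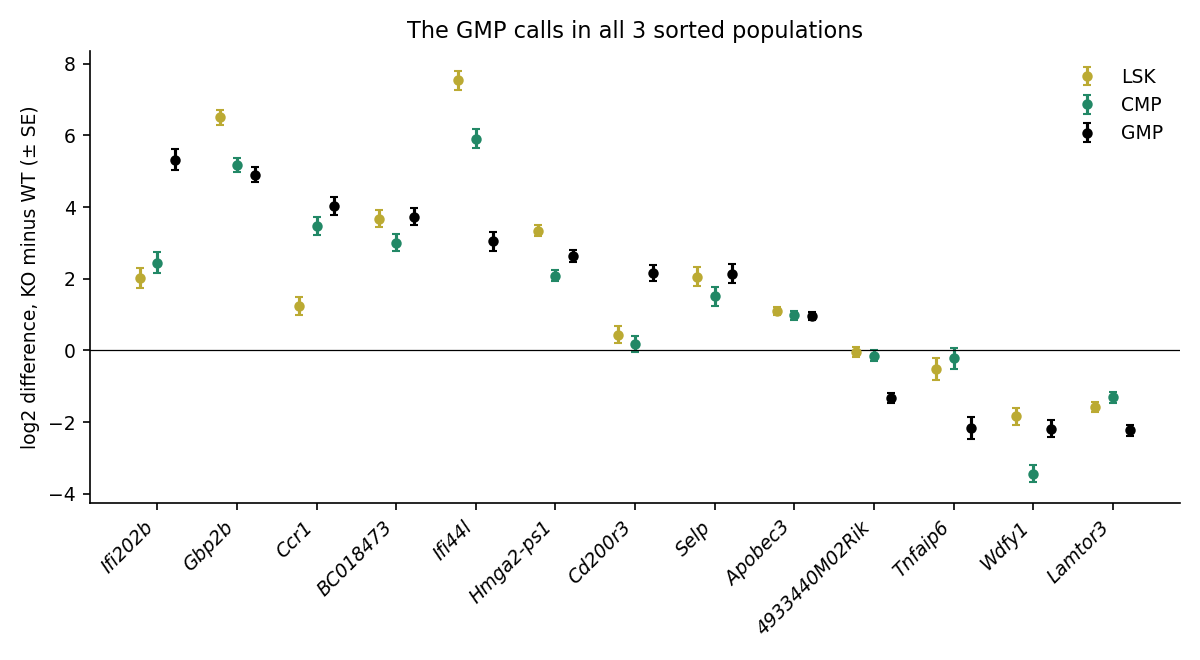
Log2 difference of KO minus WT (y axis) with its limma SE for the 13 autosomal genes called in GMP, in LSK (yellow), CMP (green) and GMP (black). Ifi44l falls from 7.53 in LSK to 3.04 in GMP, Ifi202b is 5.32 in GMP against 2.03 in LSK, and Cd200r3, 4933440M02Rik and Tnfaip6 lie near 0 outside GMP.

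The called genes were also read in the other sorted populations. The LSK and CMP comparisons use other arrays but the same genotypes and share the spread of the one fit. All 13 differences had the same sign in CMP and in LSK. Of the 13, 9 were called in CMP (0.121% of all genes), 9 in LSK (0.264%) and 8 in both, while Cd200r3, Tnfaip6 and 4933440M02Rik were called in neither. Arrays did not overlap, in the same direction, for 13 in CMP and 12 in LSK. Over all genes KO arrays lay above WT arrays for 22.9% in CMP and 18.1% in LSK, and below for 15.1% in each. These counts include Cd200r3 and 4933440M02Rik, which lay below the floor on all CMP and LSK arrays, so their signs there rest on background values. A test of whether the KO difference in GMP departs from that in CMP passed for 0 of 18194 genes (0%) in limma. At an unadjusted p below 0.05 the count was 679 (3.73%). No gene was thus shown to differ between KO and WT in GMP and not in CMP.

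**Figure D4:**
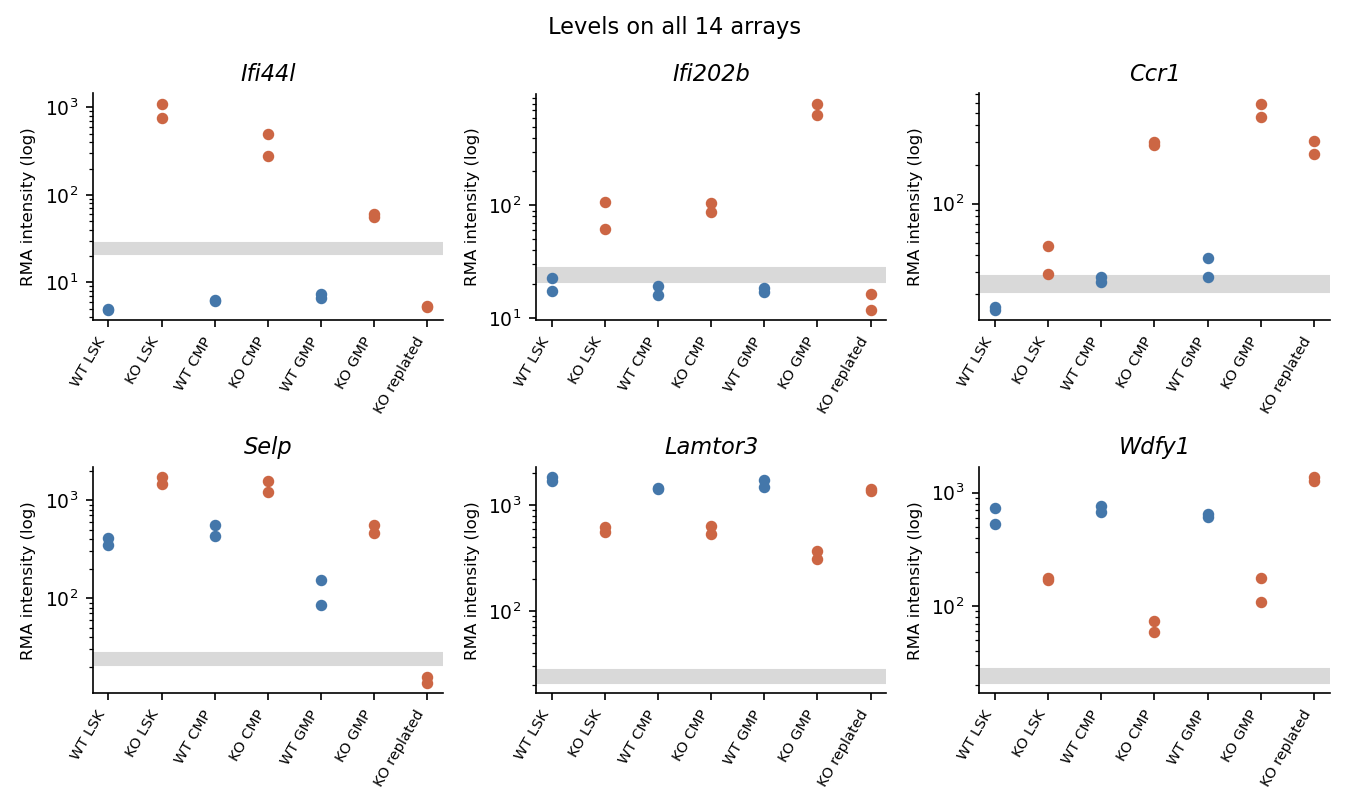
RMA intensity on a log axis for Ifi44l, Ifi202b, Ccr1, Selp, Lamtor3 and Wdfy1 on all 14 arrays, each array a point (blue WT, orange KO), with the grey band spanning the floors. Levels of Ifi44l in KO run from 909 in LSK to 57.8 in GMP, while cultured KO cells lie below the floor for Ifi44l, Ifi202b and Selp and reach 1391 for Lamtor3 and 1320 for Wdfy1.

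By position, 4 of the 13 autosomal calls lie on chromosome 1 (Ifi202b, Hmga2-ps1, Selp and Wdfy1, 0.378% of the 1057 genes measured there). Chromosome 3, which also carries Tet2, holds 3 (Lamtor3, Gbp2b and Ifi44l, 0.329% of 913). Over all autosomal genes the share called was 0.074%. In the RefSeq order of measured genes on chromosome 3, Lamtor3 is 19, Gbp2b 42 and Ifi44l 84 genes beyond Tet2 on one side. Among the 10 nearest measured genes on each side of Tet2, 0 of 20 were called, with differences between -0.73 and 0.74. With 0.074% of autosomal genes called, 20 genes are too few to show a shortage of calls. The part of linkage to Tet2 in these calls was not tested.

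Myeloid identity showed no called change. Mpo, the myeloperoxidase of primary granules, read 12628 and 12139 in WT and 12425 and 12276 in KO GMP, with overlapping arrays (SE of the difference 0.11). Cebpa, the transcription factor needed to form GMP, differed by 0.03 (SE 0.14) and Irf8, which favours monocyte and dendritic fate, by 0.14 (SE 0.19). Elane, Prtn3 and Ctsg, the serine proteases of primary granules, differed by -0.06 (SE 0.16), -0.12 (SE 0.26) and -0.07 (SE 0.20).

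Of 17 GMP markers 0 passed in limma (1 at an unadjusted p below 0.05), with KO arrays above WT arrays for 2 (11.8%, against 19.1% of all genes) and below for 9 (52.9%, against 15.9%) and a median of -0.12, or -0.07 without either WT GMP array and -0.08 with the mean of a gene's probe sets. Of 18 primary granule genes 0 passed (1 at the unadjusted level), with 5 above (27.8%) and 10 below (55.6%) and a median of -0.05. The largest shortfall among them was Gstm1, a glutathione transferase, at 3819 and 3477 in WT and 2407 and 2369 in KO (-0.61, SE 0.12, adjusted p 0.322). Lyz1 (0.34, SE 0.19) and Lyz2 (0.36, SE 0.20), the lysozymes, had KO arrays above WT arrays. The 21 late neutrophil genes divided 7 above and 6 below (33.3% and 28.6%), with a median of -0.02 whose sign turned with the setting (-0.03 to 0.04) and on leaving out a GMP array (-0.27 without KO replicate 1 to 0.16 without KO replicate 2), and none passed in limma (2 of 21 at an unadjusted p below 0.05). The DNA replication (27) and mitosis (24) genes had medians of -0.03 (-0.04 to 0.01 over other settings) and 0.06 and 0 calls (1 and 0 at the unadjusted level). Their signs turned with 1 array: without KO GMP replicate 1 the DNA replication median was 0.06, and the mitosis median was -0.08 without WT replicate 2 and 0.22 without WT replicate 1.

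Monocyte and macrophage genes were more often higher in KO arrays, without a call. Of 28 measured, KO arrays lay above WT arrays for 14 (50%, against 19.1% of all genes) and below for 1 (3.57%, against 15.9%), the list median was 0.22, and it ranged from 0.18 to 0.26 when a GMP array was left out. Adgre1, which encodes the macrophage antigen F4/80, read 46.5 and 53.3 in WT and 150 and 103 in KO (1.32, SE 0.56). S100a4, a calcium-binding protein of motile cells, read 109 and 116 in WT and 244 and 318 in KO (1.31, SE 0.46), and Cd14, a co-receptor for lipopolysaccharide, read 103 and 158 against 248 and 231 (0.91, SE 0.28, adjusted p 0.923). Csf1r, the receptor for macrophage colony-stimulating factor, read 1449 and 1588 against 2594 and 2306 (0.69, SE 0.75). These KO values all exceeded the WT values, but none of the 28 genes passed (6 at an unadjusted p below 0.05, 5 higher and 1 lower). Vcam1, an adhesion molecule of marrow macrophages, went the other way, at 969, 772, 607 and 401 (-0.81, SE 0.31).

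Of 12 MHC class II genes KO arrays lay above WT arrays for 5 (41.7%) and below for 0, against 19.1% and 15.9% of all genes. The list median was 0.34, and it was 0.18 without WT GMP replicate 1, 0.52 without WT replicate 2 and 0.55 without KO replicate 1. Cd74, the invariant chain that escorts class II molecules, had the largest difference, at 59.5 and 57.4 in WT and 222 and 300 in KO (2.15, SE 0.51, adjusted p 0.599). H2-Ab1, a class II beta chain, read 251, 431, 535 and 534 (0.70, SE 0.40), and Ciita, the class II transactivator, was near the floor. Dendritic cell genes (14) had 7 above (50%) and 0 below, against the same shares of all genes, and a median of 0.30. That median was 0.18 without KO GMP replicate 2. With values raised to the floor it was 0.14, beside a median of 0.13 over all genes in that setting. They were led by the transcription factor Irf4 at 17.8, 75.6, 139 and 97.6 (1.67, SE 0.86). None of either list passed in limma (1 class II and 2 dendritic cell genes at an unadjusted p below 0.05).

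**Figure D5:**
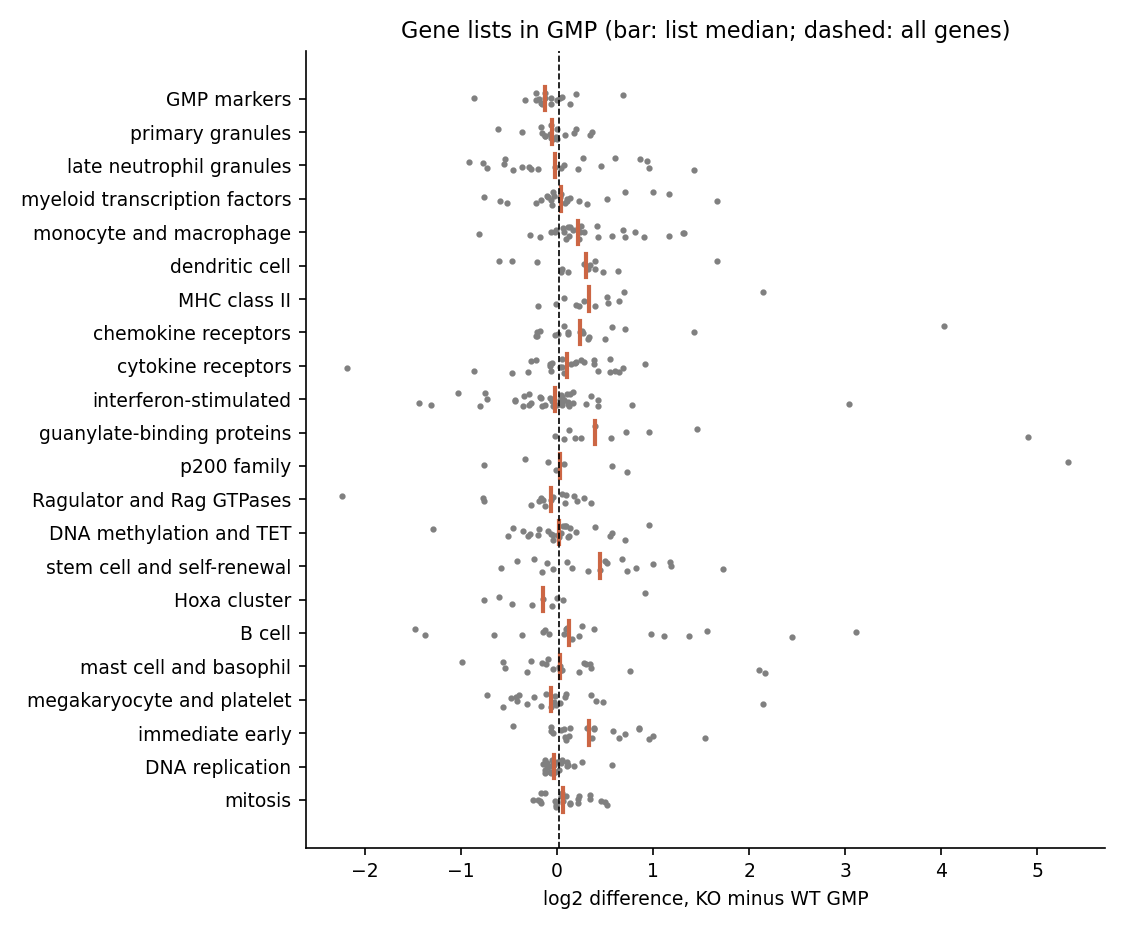
Log2 difference of KO minus WT GMP (x axis) for the members of 22 gene lists, each member a point, orange bars at list medians and the dashed line at the median of all genes, 0.02. The median of stem cell genes, 0.45, was 0.23 with the mean of a gene's probe sets and -0.05 without WT GMP replicate 2. That of the Hoxa cluster, -0.14, ranged from -0.18 to 0.06 over other settings. The points far to the right include the called genes Ifi202b, Gbp2b, Ccr1 and Ifi44l, and also Ebf1 at 3.11, which was not called.

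Stem cell and self-renewal genes had a list median of 0.45. Of 19 measured, KO arrays lay above WT arrays for 6 (31.6%, against 19.1% of all genes) and below for 1 (5.26%, against 15.9%), and 0 passed in limma (3 at an unadjusted p below 0.05). Mecom, a zinc finger regulator of stem cells, read 353 and 63.8 in WT GMP and 471 and 524 in KO (1.73, SE 0.63, adjusted p 1.0). Meis1, the homeobox partner of Hox proteins, read 105 and 10.4 in WT and 64.1 and 86.4 in KO (1.17, SE 0.80), so the WT arrays themselves differed more than the groups did. Without WT GMP replicate 1 both passed, Mecom at 2.96 (adjusted p 0.0185) and Meis1 at 2.84 (adjusted p 0.00165), while the list median was -0.05 without WT GMP replicate 2 and between 0.31 and 0.45 without each of the other GMP arrays, and 0.23 with the mean of a gene's probe sets. Levels of both were highest in LSK, with WT levels of 3479 for Mecom and 485 for Meis1 there. Hoxa9, a homeobox gene that falls during myeloid maturation, went the other way, at 686 and 694 in WT and 419 and 396 in KO (-0.76, SE 0.21, adjusted p 0.786).

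Cytokine receptors gave 0 calls in limma among 28 (2 higher and 2 lower at an unadjusted p below 0.05). KO arrays lay above WT arrays for 12 (42.9%, against 19.1% of all genes) and below for 3 (10.7%, against 15.9%). The list median was 0.11, with single members going both ways. Csf2rb2, the mouse beta subunit for interleukin-3, read 512 and 300 in WT and 86.5 and 85.7 in KO (-2.19, SE 0.92, adjusted p 1.0). Csf2ra, the GM-CSF receptor alpha chain, read 532 and 310 against 217 and 231 (-0.86, SE 0.33). Il1r1, the receptor for interleukin-1, read 464 and 540 against 909 and 978 (0.91, SE 0.23, adjusted p 0.701). Flt3 (0.28, SE 0.28) and Csf3r (-0.21, SE 0.32), receptors of lymphoid-primed and neutrophil progenitors, did not pass. Immediate early genes, which respond within minutes to handling and to growth factors, had a median of 0.34, with 18 of 22 positive (81.8%, against 53.8% of all genes) but KO arrays above WT arrays for 3 (13.6%, against 19.1%) and below for 0. The median was 0.10 without KO replicate 1, 0.17 and 0.22 without WT replicates 2 and 1, and 0.45 without KO replicate 2. Their summed intensities were 20448 and 15626 on the WT arrays and 27695 and 19731 on the KO arrays, so the groups overlapped; the part of this in other differences was not tested.

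Several larger differences missed the threshold, and some of them passed without a single array. Fscn1, an actin-bundling protein, read 5.28 and 4.21 in WT and 52.7 and 231 in KO (4.55, SE 0.70, adjusted p 0.0802). Without KO GMP replicate 1 the difference was 5.62, and with other variance settings of limma (trend and robust) the gene passed (adjusted p 0.0362). Its WT values lay below the floor, and its other probe sets did not show such a rise. Those above the floor on all 4 arrays read 44.8, 61.2, 64.8 and 72.1 (0.38), and 29.5, 37.4, 34.9 and 48.5 (0.31). Ptprd, a receptor tyrosine phosphatase, read 9.54 and 12.99 against 99.4 and 48.9 (2.65, SE 0.38, adjusted p 0.0525), and passed without KO GMP replicate 2 (adjusted p 0.0305) and without either KO CMP array (0.0439). Dst, Sdc4 and Meiob were also higher, at 2.53, 2.46 and 2.91.

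B-lineage transcripts were among these higher values. Ebf1, the factor that specifies B cells, read 27.7 and 20.6 in WT GMP and 251 and 169 in KO GMP (3.11, SE 0.51, adjusted p 0.112). With values raised to the floor it passed (2.99, limma adjusted p 0.0293). Its other probe sets did not show such a rise. The brightest of them, above the floor only on replicate 1 of each genotype, differed by -0.17 (SE 0.47). The remaining sets of Ebf1 lay below the floor on all 4 arrays. Pou2af1, a B-cell coactivator, read 59.6 and 25.5 against 251 and 180 (2.45, SE 0.46, adjusted p 0.218), and Ms4a1, which encodes CD20, read 15.7 and 10.6 against 32.6 and 44.5 (1.56, SE 0.29, adjusted p 0.206). Of 20 B-cell genes 0 passed in limma (3 at an unadjusted p below 0.05), KO arrays lay above WT arrays for 8 and below for 2 (40% and 10%, against 19.1% and 15.9% of all genes), and the median was 0.13. That median was 0.06 with 16 added to each intensity, 0.24 over genes above the floor and 0.08 without WT GMP replicate 1. Pax5, which fixes B-cell identity, was below the floor on all 4 arrays, and Cd79a (-0.37, SE 0.25) and Cd79b (0.07, SE 0.21), the B-cell receptor signalling chains, did not pass. The summed intensity of the list was 2164 and 2674 in WT and 3035 and 2792 in KO. In WT LSK the levels of Ebf1 (1426), Pou2af1 (1920), Fscn1 (2039), Sdc4 (4264), Dst (620) and Cd74 (889) exceeded those in KO GMP. The part of other cells within the gate in these values was not tested.

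Among the lower values that missed the threshold, Sh3d19, an adaptor with SH3 domains that lies on chromosome 3, read 329 and 598 in WT GMP and 24.1 and 11.8 in KO (-4.71, SE 0.72, adjusted p 0.0789). It passed without either KO LSK array (adjusted p 0.00772) and with values raised to the floor (-4.10, adjusted p 0.00022). Btla, an inhibitory lymphocyte receptor, read 207 and 192 in WT and 17.0 and 16.2, below the floor, in KO, at least 7.8-fold lower (-3.58, SE 0.65, adjusted p 0.201). It passed without either KO CMP array (adjusted p 0.00429) and in the fit of the 4 GMP arrays alone (0.037). Its differences were of like size in CMP (-2.82) and LSK (-3.39), also without a call. Enah, an actin regulator, read 175 and 237 against 57.8 and 38.0 (-2.12, SE 0.45, adjusted p 0.398), and passed with values raised to the floor (adjusted p 0.0215). Cmah, Zfp974, Slfn4, Baiap3 and Slc25a33 differed by -3.34, -2.91, -2.55, -2.18 and -2.18, and in each of these 5 the WT arrays differed more than 2-fold from each other; Baiap3 passed without WT GMP replicate 1 (-3.43, adjusted p 0.000989).

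Counted by size instead of by test, 418 genes (2.3%) had non-overlapping GMP arrays, a difference of 2-fold or more and a level above the floor in a group, 228 higher (1.25%) and 190 lower (1.04%) in KO. No gene of the erythroid (19), eosinophil (7) or T and NK cell (20) lists passed in limma (3, 0 and 0 at an unadjusted p below 0.05), with list medians of 0.12, 0.29 and 0.10 and KO arrays above WT arrays for 4, 3 and 6 of their members (21.1%, 42.9% and 30%, against 19.1% of all genes) and below for 2, 0 and 2 (10.5%, 0% and 10%, against 15.9%). Without KO GMP replicate 1 the erythroid and T and NK cell medians were 0.00097 and 0.0093. Over the omission of each GMP array in turn the 3 medians reached 0.10, 0.42 and 0.23 at most, and the eosinophil median 0.16 at least. Cdkn1a, the p53-induced cell cycle inhibitor p21, read 263 and 198 in WT and 113 and 134 in KO (-0.89, SE 0.49), and 0 of 21 genes of its list passed (2 at the unadjusted level).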

How the data were processed

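Total RNA of sorted progenitors and cultured cells was hybridised to Affymetrix mouse arrays, 14 in all. The values are probe-set intensities deposited by the authors and made with RMA, per the submitters' processing notes (version not given in the sources used here, as is the set of arrays normalized at once). RMA corrects background, normalizes between arrays and summarises probes. The intensities are linear, so log2 was taken and nothing else was rescaled. Array medians lay between 31.2 and 33.0. No batch was tested, since slide and scan date were not used.

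Of 45101 probe sets, 34958 name 1 gene by the platform's annotation, 932 name several and 9211 are not listed. Identifiers were matched to RefSeq, assembly GRCm38.p6 (34754 probe sets matched, 204 did not, 0 symbols changed). Each gene took the probe set of highest mean over the arrays, which gave 18194 genes, of which 9012 had several sets. For 6 of the 13 called autosomal genes there were 11 further probe sets: 4 were below the floor throughout, 6 moved the same way at an unadjusted p below 0.05 and 1 did not.

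Arrays were grouped by title. One linear model with a mean per group was fitted with limma 3.58.1 (lmFit, eBayes; R 4.3.3, data.table, version 1.17.8) to all 14 arrays, with 7 residual and 2.19 prior degrees of freedom, and differences between populations were interaction contrasts of it. The number of arrays limits the precision. On simulated data of 18194 genes, 155 of 200 genes changed 4-fold (77.5%) were recovered in the GMP comparison, with 10 false calls. The genes named are Tet2, every called autosomal gene, the 8 largest positive and negative differences among others with an unadjusted p below 0.01, non-overlapping arrays and a brighter group above the floor, up to 4 members of each gene list with the smallest p, and genes followed throughout; others named from the lists, and BC018473 and 4933440M02Rik, were chosen after their values were seen. The comparison, lists and rules were chosen with earlier results of these data known. Alternatives were the arrays in the fit, scaling, an offset of 16, the floor, other probe-set summaries, variance settings, a replicate block, genes of X, Y and chromosome 3 left out, and each array left out. Replicate numbers were not taken to pair samples: deviations of same-numbered arrays correlated by 0.0987 in GMP, 0.0610 in CMP and -0.0799 in LSK.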

Additional observations from a re-analysis of the deposited data

Results flagged for a closer look

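Ifi44l was singled out because its KO difference was not the same in all populations. The difference in GMP minus that in LSK was -4.49 on the log2 scale (SE 0.36, limma interaction adjusted p = 0.00844). Both WT groups lay below the floor, so the size of this contrast rests on values near background on the WT side, while the KO levels of 909 in LSK and 57.8 in GMP were above it. With 2 arrays a group, single outlying arrays were not tested.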

How the results depend on the processing

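Of the 13 autosomal calls, Gbp2b, Ifi202b and BC018473 passed in all 26 alternatives, and none of the 13 changed sign in any. The 17 genes called became 6 when the 4 GMP arrays were fitted alone (5 shared), 32 with all probe sets as features, and 10 without genes of X, Y and chromosome 3 (7 higher, 3 lower, all 10 shared). Leaving out each array gave 14 to 30 genes, with 30 without WT GMP replicate 1 (13 shared) and 14 without either cultured array. All other settings gave 12 to 24. With values raised to the floor the median of all genes moved to 0.13 from 0.02. Tnfaip6 has no value under the filter on genes above the floor. For the difference between GMP and LSK, the 1 gene became 0 in the fit of 8 arrays, 5 with an offset of 16, 5 with values raised to the floor and 4 with all probe sets; leaving out each array gave 0 (either KO GMP array) to 72 (KO LSK replicate 2). For the difference between GMP and CMP, with 0 genes, leaving out each array gave 0 to 7 (KO CMP replicate 1). An omitted array leaves its group with 1, assumed to vary like the others.

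With the replicate number as a block, 12 genes were called in GMP (11 shared), and 0 in the difference between GMP and LSK. The calls of Wdfy1 (adjusted p 0.0978), Apobec3 (0.236), Selp, Cd200r3 and Tnfaip6 (0.0781 each) and 4933440M02Rik (0.122) were lost, and Pou2af1 was gained (0.0407). The same-numbered arrays share only a number.

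Genes near the floor, such as Cd200r3, Tnfaip6 and Ifi44l, are limited by signal over background. Since 2 arrays make a group, a difference that missed the threshold is not shown to be absent.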

Other observations

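Probe sets without a single gene name also held differences. In a fit of all 45101 probe sets, 32 passed in GMP, of which 22 name 1 gene and 10 are among the 10143 that name several genes or none here. Their genes were not analysed here.

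Genes that fall between the LSK and CMP stages were read in GMP (chosen after seeing the data). The WT LSK and WT CMP arrays do not enter the GMP difference, but they share in the spread behind its p-values and calls. They gave 185 autosomal genes lower and 87 higher in WT CMP (limma, adjusted p below 0.05). Of the 185, both KO GMP arrays lay above both WT GMP arrays for 57 (30.8%, against 19% of all autosomal genes) and below for 31 (16.8%, against 16%). The median difference was 0.09, or 0.02 without KO GMP replicate 2, beside 0.02 over all autosomal genes, and 0 of the 185 were called. Of the 87, KO arrays lay above for 19 (21.8%) and below for 24 (27.6%), with a median of 0.01 and 1 call.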
